A study of Macaca mulatta with 8 samples.

Results

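Cultures of rhesus macaque cortex from post-conceptional days 60 and 85, named E60 and E85, were compared by where their chromatin was called open. The unit was the merged region, a stretch of the genome under which the deposited table names the peaks it holds. A region was E60-only when it held an E60 peak and no E85 peak, E85-only in the reverse case, and shared when it held both. Of 60137 autosomal regions with a peak of either stage, 32180 were E60-only (53.5%), 2408 were E85-only (4.00%) and 25549 were shared (42.5%). The 34588 discordant regions are part of 72358 regions with a peak of any of the 4 stages of the series. The regions were chosen by these peak calls, so the class sizes, and the shares of each class at a locus or a gene list, are given as descriptions without a test.

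In the primate cortex, radial glia of the ventricular zone divide first to give deep-layer neurons and later upper-layer neurons and glia, in part through intermediate progenitors and outer radial glia. Interneurons are born in the ventral forebrain and migrate into the cortex. Enhancers, the distal elements that drive such programmes, differ between cell types more than promoters do. ATAC-seq finds open elements of both kinds because Tn5 transposase cuts DNA that nucleosomes do not cover.

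The 4 stages, days 50, 60, 80 and 85, were each represented by 1 culture, sequenced as 2 technical libraries, which makes 8 libraries. All cultures were primary cells from cryopreserved cortex, dissociated with papain and grown in a medium that enriches progenitors and holds FGF2, EGF and BDNF, then processed by Omni-ATAC. How many animals gave a culture is not given in the sources used here. Peaks were named per stage, so neither library can be set against the other, and no difference between E60 and E85 has a replicate check. Exact Clopper-Pearson 95% intervals over regions cover counting error alone, regions are not independent, and age cannot be told apart from the culture. The E60 set held 61956 peaks and the E85 set 30701, against 19833 at E50 and 60278 at E80. How far read depth set the sizes of these sets was not tested. Defining markers of cortical progenitors were called in both cultures. A promoter call was present at 15 of 15 radial glia genes at E60 and 14 of 15 at E85, PROM1 being the exception. Of all 19839 autosomal protein-coding genes, 53.3% had a promoter call at both stages. A further 12.7% had it at E60 and not E85, and 1.19% the reverse. No promoter of the 5 microglia genes with regions was called at either stage. Of the endothelium list, the promoters of CLDN5, EGFL7, ERG, FLT1 and KDR were called at E60 and none at E85. Fewer cells of a type and less accessibility per cell cannot be told apart in bulk samples.

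The sequences below show the letters on which the motif results turn, in distal regions of listed genes where no peak number of the other stage was missing (explained below). Each is the central 200 bases of a region on the plus strand of rheMac10, from 5′ to 3′. In the E85-only regions capitals mark ACATTCC, the core that TEAD factors of the Hippo pathway bind, and TTCNNNGAA, the core that STAT factors bind, on either strand. In the NRXN3 region the STAT and TEAD letters overlap. That region, at chr7:141219522-141219977, and the GRM7 region, at chr2:138664402-138664836, were also called at E50 and E80. The TGFA region, at chr13:38205774-38206075, was also called at E80, and the BOC region, at chr2:162965030-162965364, at no other stage. All 4 are intronic, and they were chosen because they hold these letters. Letters followed on the E60 side are not marked here. The NRXN3 and TGFA windows both also hold TGANTCA, the AP-1 letters described below. The NRXN3 window holds the homeobox letters TAATTA as well, and the TGFA window the E-box CAGCTG.
NRXN3: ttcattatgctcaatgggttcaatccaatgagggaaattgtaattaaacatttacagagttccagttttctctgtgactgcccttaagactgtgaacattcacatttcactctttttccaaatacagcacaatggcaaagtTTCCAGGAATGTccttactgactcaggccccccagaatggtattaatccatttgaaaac
TGFA: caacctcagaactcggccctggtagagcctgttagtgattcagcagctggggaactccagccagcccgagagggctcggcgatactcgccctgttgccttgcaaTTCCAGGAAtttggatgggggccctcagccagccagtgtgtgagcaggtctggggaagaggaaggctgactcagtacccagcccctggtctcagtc
GRM7: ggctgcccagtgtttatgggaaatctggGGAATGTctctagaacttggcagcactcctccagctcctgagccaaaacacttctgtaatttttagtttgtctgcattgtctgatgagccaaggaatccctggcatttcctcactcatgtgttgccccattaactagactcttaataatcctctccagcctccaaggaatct
BOC: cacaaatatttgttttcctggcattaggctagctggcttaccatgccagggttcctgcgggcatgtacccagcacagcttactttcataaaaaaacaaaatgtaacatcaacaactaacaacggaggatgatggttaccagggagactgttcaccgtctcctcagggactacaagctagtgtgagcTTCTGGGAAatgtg

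In the E60-only regions capitals mark TGANTCA, the site of AP-1 dimers of FOS and JUN proteins and the E-boxes CAGCTG and CAGATG of proneural factors. The region of GAD1, at chr12:57980048-57980509, and that of GLI3, at chr3:73092057-73092263, were called at E60 alone of the 4 stages. Both are intronic, and each was taken from 11 distal regions of its gene as the one with the most matches. Matches to the homeobox letters TAATTA were counted too, and the match nearest the centre decided ties. The GAD1 window holds 1 match, so no other of its 11 windows held more, and the GLI3 window holds 3.
GAD1: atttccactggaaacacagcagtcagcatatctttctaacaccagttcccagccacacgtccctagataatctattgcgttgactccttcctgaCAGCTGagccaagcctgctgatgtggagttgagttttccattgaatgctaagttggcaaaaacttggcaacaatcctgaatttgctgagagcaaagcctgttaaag
GLI3: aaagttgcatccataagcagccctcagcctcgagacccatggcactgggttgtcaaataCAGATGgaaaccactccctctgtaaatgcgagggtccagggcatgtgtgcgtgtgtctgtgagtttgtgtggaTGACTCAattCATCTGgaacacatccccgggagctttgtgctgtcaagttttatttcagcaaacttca

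Calls at E50 and E80 played no part in choosing the regions, and the discordant classes differed in both. E60-only regions were mostly also open at E80: 64.7% held an E80 peak (interval 64.2 to 65.2) and 1.26% an E50 peak (1.14 to 1.39). Of the E85-only regions 45.1% held an E80 peak (43.1 to 47.1) and 32.2% an E50 peak (30.3 to 34.1). Among shared regions these shares were 97.4% and 65.6%. The E50 set is the smallest and the E60 and E80 sets the largest, and set size was not separated from these shares.

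The imbalance of the classes differed with the calls at E50 and E80. Where both E50 and E80 held a peak, 339 regions lacked E85 and 364 lacked E60, against 16506 that held both. The E85 share of these discordant regions was 51.8% (48.0 to 55.5). Put the other way, E60 was missing from 2.16% of the regions that E50, E80 and E85 held, and E85 was missing from 2.01% of those that E50, E60 and E80 held, which differ little over all regions. The near-even split did not hold in every subset: the E85 share was 65.3% in regions without lifted peaks and 57.2% in regions up to 1000 bp. Where E80 alone of the other stages held a peak, 20483 regions were E60-only and 721 E85-only, an E85 share of 3.40% (3.16 to 3.65). Where E50 alone did, the order was reversed, with 67 E60-only and 411 E85-only regions, an E85 share of 86.0% (82.5 to 89.0). Regions that neither stage held numbered 11291 and 912.

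**Figure D1:**
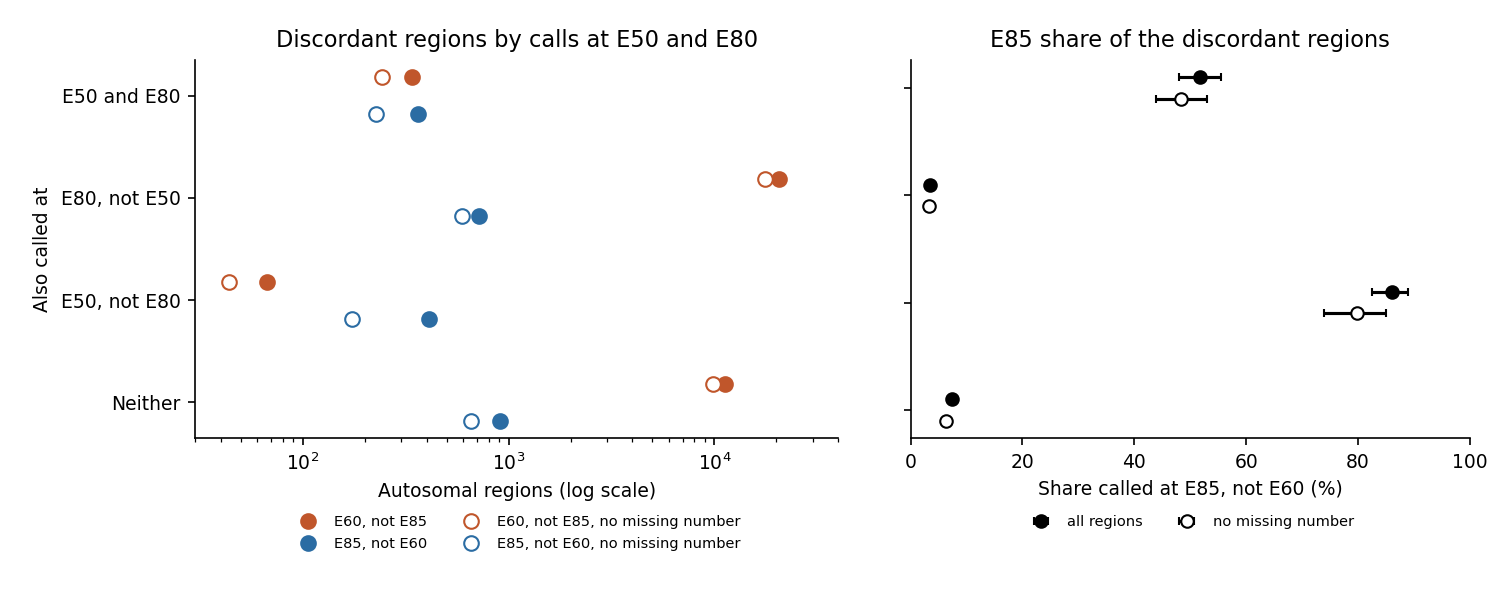
Left, autosomal regions called at E60 and not E85 or at E85 and not E60 (log axis), by their calls at E50 and E80; right, the E85 share of these discordant regions in percent with exact 95% intervals, open symbols leaving out regions with a missing peak number of the other stage. Regions also called at E50 and E80 divide nearly evenly (339 and 364), those with E80 alone are nearly all E60-only, and those with E50 alone are mostly E85-only.

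Peak names carry numbers that run along the genome, so a number absent between neighbouring peaks shows that a peak was named there which the table used here does not hold. Such an E60 number was missing at 31.3% of the E85-only regions, against 15.5% of all autosomal regions without an E60 peak. An E60 number was missing at 77.1% of the 349 E85-only promoters, against 25.4% of promoter regions that held lifted peaks alone, and at 23.5% of the 2059 E85-only distal regions (21.7 to 25.4). Both shares lie above the one over all regions, the promoter share by more. An E85 number was missing at 13.9% of the E60-only regions, close to the 13.97% of all regions without an E85 peak, and at 20.0% of the E60-only promoters. A missing number shows that a peak may have lain in the interval, not that it lay in the region. Leaving out regions with a missing number of the other stage kept 27635 E60-only and 1654 E85-only regions, and the main E85-only results below are given with and without them. The E85 share where E50 and E80 both held a peak was then 48.4% (43.8 to 53.0; 243 and 228 regions), and where E50 alone did, 79.8% (73.9 to 84.9; 44 and 174 regions).

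Both discordant classes were distal, narrow and lower in GC than shared regions. Within 1000 bp of an annotated transcription start lay 14.02% of the E60-only regions (13.6 to 14.4), 14.5% of the E85-only regions (13.1 to 15.96) and 41.5% of the shared regions. Without missing numbers the E85-only share was 4.78% (3.80 to 5.92) and the E60-only share 13.04%. Median widths were 398, 395 and 839 bp for E60-only, E85-only and shared regions, and the median GC content of the central 300 bp was 50.3%, 49.3% and 58.3%. Among distal regions alone the classes lay closer, with median widths of 378, 370 and 610.5 bp and median GC of 49.0%, 48.0% and 51.7%. Introns held 42.3% of the E60-only and 44.1% of the E85-only regions. On single chromosomes the E60-only share ran from 39.6% on chromosome 19, where 43.6% of regions were promoters, to 62.8% on chromosome 18, and the E85-only share from 3.37% to 4.66%.

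Counted by gene, promoters called at E60 and not E85 belonged to 2523 of 19839 autosomal protein-coding genes (12.7%), and the reverse to 236 (1.19%), while 10580 were called at both (53.3%). Of the 2523 genes 81.0% also had a promoter call at E80 and 2.81% at E50. Of the 236 genes 30.5% had one at E80 and 70.3% at E50. Those 236 include EIF4A1, a translation initiation helicase, ENO1, the glycolytic enolase, and SDHA, a subunit of succinate dehydrogenase, named here after their calls were seen. An E60 number was missing at 218 of the 236 genes (92.4%), so the E60 state of most of these promoters cannot be told from the table used here, and an E85 number at 24.6% of the 2523.

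Loci, meaning a gene body and the 5000 bp upstream, were ranked by the share of their regions in a class, among 2194 named loci with at least 5 regions. Every region was E60-only at 79 loci (3.60%) and shared at 14 (0.638%). The median locus had 58.1% E60-only regions. GAD1, which encodes an enzyme that makes GABA and lies on chromosome 12 from 57960027 to 58006388, had 12 E60-only regions and no other, 7 of them also called at E80. ATP8A2, a phospholipid flippase gene, and ZNF536, a zinc-finger gene, also had 12 of 12. MYT1, a zinc-finger factor of neuronal differentiation, had 11 of 11, as did GFRA1, a receptor for GDNF, and CHN2, a GTPase-activating protein for Rac. GMDS, an enzyme of GDP-fucose synthesis, had 14 of 14. SPON1, which encodes a secreted matrix protein that guides axons, had 10, KIFC3 8, and CADM3 and COL26A1 7 each. One E85 number was missing in the interval around all 14 regions of GMDS, and likewise around the 11 of GFRA1 and the 11 of MYT1. Only 1 peak name was absent from each of these intervals. The other 9 of these 12 loci had none missing.

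Loci where E85-only regions made up the largest share had few regions. At least 1 E85-only region was found at 614 of the 2194 loci (28.0%), and more E85-only than E60-only regions at 29 (1.32%). HK1, the hexokinase of brain glycolysis, on chromosome 9 from 68399609 to 68530029, had 3 E85-only, 2 E60-only and 1 shared region, and the E85-only ones lay 2.9 to 14.2 kb from its start. NEBL, which encodes an actin-binding protein, had 3 E85-only and 3 shared regions, but an E60 number was missing around all 3. SNAP47, a SNARE-domain gene, had 3 E85-only, 1 E60-only and 2 shared regions. NLRC5, a regulator of MHC class I genes, and STK32B, a kinase gene, had 3, 2 and 2 each. IL6R, the interleukin-6 receptor that signals through STAT3, and FAM124A each had 2 E85-only, 3 shared and no E60-only regions. MYO6, a motor protein gene, NGEF, a guanine nucleotide exchange factor gene, and CCDC60 had 2 E85-only, 2 E60-only and 1 shared, and INPP4A and CCSER2 had 2, 1 and 2. A missing E60 number touched 1 region each at NLRC5, INPP4A and NGEF. None of these 12 loci had 10 regions or more.

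By number, MYO5B, a motor of endosome recycling, and IQSEC1, an exchange factor for ARF6, had the most E85-only regions, 6 each, beside 9 and 20 E60-only ones. An E60 number was missing at 2 of the 6 at MYO5B and at none of those at IQSEC1. CLSTN2, a synaptic cadherin-family gene, had 4 beside 3 E60-only and 4 shared regions. The plot of 8 loci shows E85-only and E60-only regions interspersed along MYO5B and lying in separate parts of HK1. At CLSTN2 the 3 E60-only regions lie between E85-only regions on either side. At PLEC, which encodes a cytoskeletal linker, all 8 regions were shared, and at CCND1, the G1 cyclin D1, all 6.

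**Figure D2:**
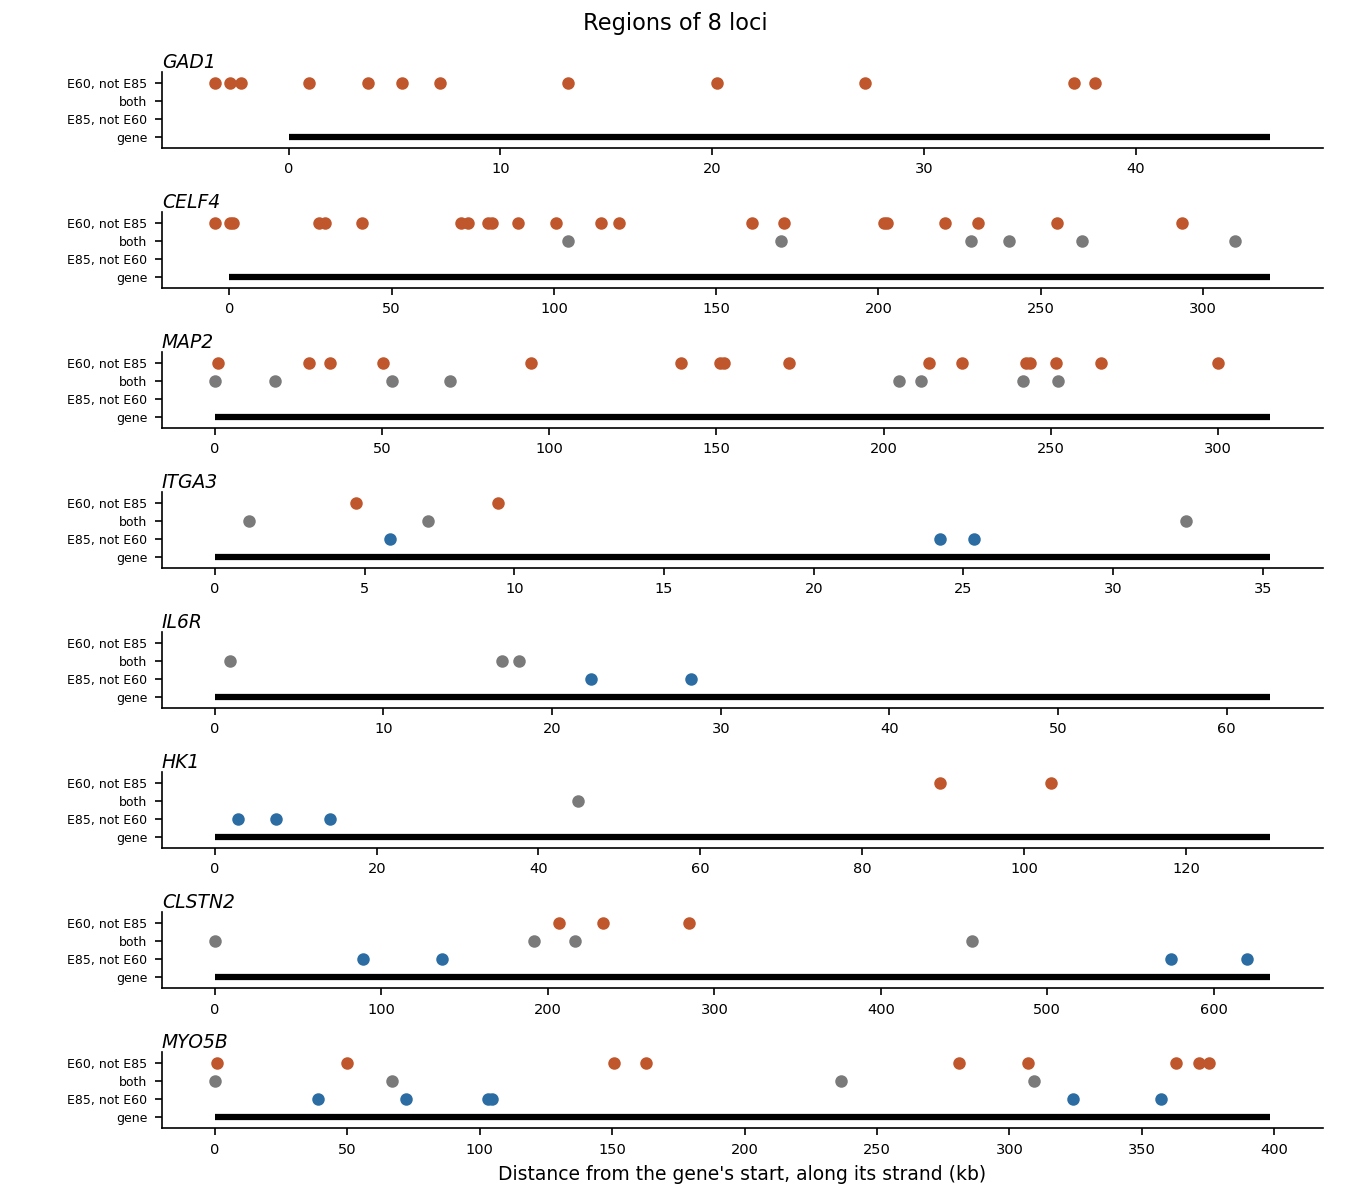
Centres of the regions of 8 loci by distance in kb from the gene's start along its strand, with the gene drawn as a black bar; each row of points is a class. All 12 regions of GAD1 are E60-only, MAP2 and CELF4 hold E60-only and shared regions, and the 3 E85-only regions of HK1 lie near its start. IL6R holds 3 shared and 2 E85-only regions.

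Gene lists were described by their share of E60-only regions, beside 49.5% over all 40080 autosomal regions at protein-coding loci, where E85-only regions made up 3.68% and shared ones 46.8%. The share was higher than that at 22 of 31 lists, counted by the share alone. Several of their intervals hold 49.5%, among them those of the astrocyte (42.8 to 63.1), Notch (45.7 to 66.1) and WNT lists (39.7 to 59.4). List shares were not weighted for gene length or for promoter and distal regions. Over all autosomal regions, promoters were E60-only at 4512 and shared at 10597, and distal regions at 27668 and 14952. The part of this mix in the shares of the lists was not tested. Neuronal and interneuron genes had shares above it, as did several lists of other kinds given below. The pan-neuronal list had 117 E60-only, 6 E85-only and 43 shared regions, 70.5% E60-only (62.9 to 77.3). CELF4, an RNA-binding protein gene, had 22, 0 and 6 in that order. MAP2, a dendrite microtubule protein gene, had 16, 0 and 8. ELAVL4 had 6 and STMN2 had 2, all E60-only. Promoters of the list were called at 13 genes at E60 and 7 at E85. Beside these and later promoter counts, 53.3% of all autosomal protein-coding genes were called at both stages and 12.7% at E60 and not E85.

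The interneuron and ventral forebrain list had 37 E60-only, no E85-only and 7 shared regions (84.1%, 69.9 to 93.4). GAD2, the other GABA-synthesis gene, had 5, 0 and 1. Regions at LHX6 and LHX8, factors of ventral interneurons, were E60-only, 1 at each. Promoters were called at 12 of these genes at E60 and 5 at E85, among the latter CALB2, DLX1, DLX2 and SP8. Deep-layer neuron genes had 52, 1 and 20 regions (71.2%). TBR1 and FEZF2, which specify corticofugal neurons, had 3 regions each, all E60-only. Upper-layer genes had 49, 0 and 21 (70.0%). Their leading member was CUX1, a homeobox factor of upper-layer neurons, with 15, 0 and 8.

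The radial glia and outer radial glia lists lay close to the background. Radial glia genes had 50 E60-only, 2 E85-only and 51 shared regions (48.5%, 38.6 to 58.6). The hedgehog effector GLI3 had 12, 0 and 10, and SOX2, which maintains neural stem cells, 5, 0 and 7. VIM and FABP7, an intermediate filament and a fatty acid-binding protein of radial glia, had shared regions alone, 2 and 1. Outer radial glia genes had 40, 2 and 41 (48.2%), with 11, 2 and 11 at ADGRV1. At LIFR and IL6ST, receptor subunits for cytokines that act through STAT3, the counts were 3, 0 and 1 and 1, 0 and 2. Intermediate progenitor genes had 9, 0 and 6 (60.0%, 32.3 to 83.7, an interval that holds the background), and their promoters were called at 8 genes at E60 and 4 at E85. INSM1, NEUROG1, NEUROG2 and PPP1R17 had their promoter called at E60 and not at E85, and EOMES had it at both. Cell-cycle genes had 15, 0 and 31 regions (32.6%, 19.5 to 48.0, below the background, which was not matched for promoter share). All 17 with regions had a promoter call at both stages, beside 53.3% of all autosomal protein-coding genes. CDK6, a G1 kinase gene, held 10 of the 15 E60-only regions.

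Glial lists spread widely. Astrocyte genes had 53, 2 and 45 regions (53.0%), and NFIA and NFIX, factors of the gliogenic switch, held 18 E60-only regions each. GFAP had 1, 0 and 4, and SPARCL1, a secreted synapse-promoting protein gene, 0, 1 and 1. Oligodendrocyte lineage genes had 30, 1 and 14 (66.7%), with 8, 0 and 1 at EGFR. Endothelium genes had 20, 0 and 3 (87.0%), mesenchyme and mural genes 10, 0 and 10, and midbrain and hindbrain genes 25, 3 and 3 (80.6%). The part of these other cells in the neuronal shares was not tested.

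Counts of E85-only regions depend on the size of a list, so they are given beside the 3.68% over all protein-coding loci, which the intervals of the axon guidance, WNT, matrix, synaptic and receptor lists all hold. Axon guidance genes had 187, 18 and 101 regions, with 5.88% E85-only (3.52 to 9.14), 12 of the 18 without a missing number. PLXNA4, a semaphorin receptor gene, and ROBO2, a Slit receptor gene, had 4 E85-only regions each, beside 9 and 17 E60-only ones, with an E60 number missing at 2 of those at ROBO2. ROBO1 had 18, 0 and 1. WNT pathway genes had 53, 8 and 46 regions, 7.48% E85-only (3.28 to 14.2), of which 3 lacked a missing number, and LRP5, a WNT co-receptor gene, had 6, 3 and 2, with a number missing at 2 of the 3. Extracellular matrix and integrin genes had 52, 5 and 49 (4.72% E85-only, 1.55 to 10.7), none of the 5 with a missing number, and ITGA3, an integrin that binds laminin, had 2, 3 and 3. Synaptic scaffold and adhesion genes had 196, 8 and 90 (66.7% E60-only and 2.72% E85-only). Receptor genes for glutamate and GABA had 73, 5 and 30 (67.6% and 4.63%). Without missing numbers the 8 and 5 E85-only regions became 7 and 4. GRIA2, the AMPA receptor subunit that limits calcium entry, had 0, 1 and 2. Promoters of the receptor genes were called at 16 genes at E60 and 6 at E85. At 10 of the 16 autosomal genes the call was at E60 and not E85, beside 12.7% of all autosomal protein-coding genes.

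The other lists had these E60-only, E85-only and shared regions. Notch had 55, 4 and 39, FGF 36, 2 and 33, hedgehog 48, 1 and 48, and BMP 39, 2 and 27. EGF receptor signalling had 46, 2 and 21, Hippo and TEAD genes 37, 1 and 33, and AP-1 and stress genes 13, 0 and 20. MAML2, a Notch coactivator, held 15, 2 and 9, and TEAD1 13, 0 and 11. Late-timing progenitor genes had 53, 1 and 30 (63.1% E60-only, 51.9 to 73.4), which overlap the astrocyte list in NFIA and NFIX, and early-timing genes 23, 0 and 19. Rostral genes had 36, 0 and 18, and caudal genes 17, 1 and 6. Choroid plexus and hem genes had 8, 2 and 8, and microglia genes 3, 0 and 4.

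**Figure D3:**
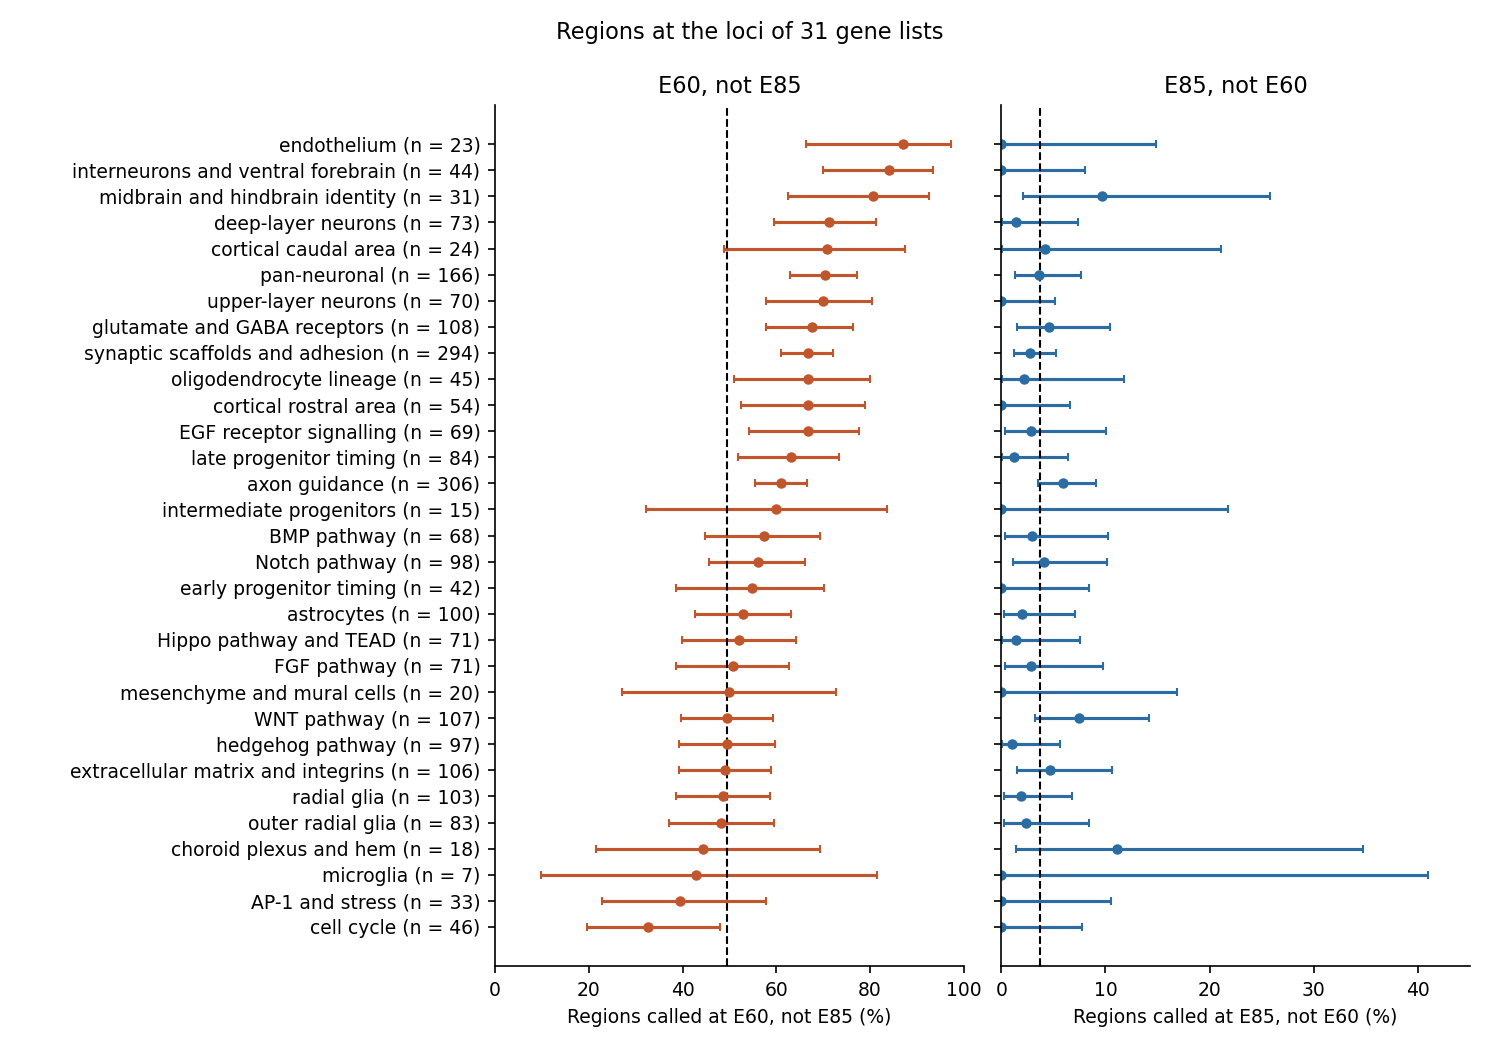
Percent of the regions at the loci of 31 gene lists that were called at E60 and not E85 (left) and at E85 and not E60 (right), with exact 95% intervals and n the number of regions. Dashed lines mark the 49.5% and 3.68% over all protein-coding loci, not matched for promoter share. On the left the points of 22 of 31 lists lie to the right of the line, several with intervals that cross it. These 22 lists include endothelium (87.0%), the interneuron and neuron lists, midbrain and hindbrain (80.6%) and intermediate progenitors (60.0%). Radial glia and cell-cycle lists do not.

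Single regions called at 3 stages and lacking at 1 were few. Of the listed genes, 13 had a region that E50, E60 and E80 held and E85 lacked, and 12 a region that E50, E80 and E85 held and E60 lacked. Of all 15283 protein-coding loci with regions 1.46% and 1.62% had such a region. Listed genes hold more regions each: such regions made up 0.583% and 0.539% of those at listed genes, against 0.506% and 0.581% of those at all loci, and their exact intervals overlap. The 13 include VCAN, which encodes a matrix proteoglycan, NOTCH1, GLI3, INSM1, and the ventral forebrain factors GSX2 and SP9. At VCAN, GLI3, GSX2, SP9 and APOE it is a promoter region. The GSX2 promoter region lies on chromosome 5 from 79537302 to 79538916 and that of SP9 on chromosome 12 from 61430622 to 61431297. At APOE, BCAN, DLL1 and LEF1 an E85 number was missing. The 12 of the reverse direction include NFIA, with an intronic region on chromosome 1 from 163258001 to 163259069, SPARCL1, on chromosome 5 from 85927797 to 85928220, and PLXNA4, on chromosome 3 from 158872870 to 158873575. NRXN3 and GRM7, whose sequences are printed above, are among the 12 as well. No promoter is among these 12, and an E60 number was missing at GRIN1, MYT1L and PLXNA2. Over all autosomal regions that E50 and E80 held, promoters were 58 of 364 E85-only (15.9%) and 72 of 339 E60-only regions (21.2%).

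The letters of 42 motifs were searched on both strands within 150 bp of region centres. Shared regions, weighted to the GC content and promoter share of each class, served as the reference. Width was not weighted, and median widths were 398 bp for E60-only, 395 bp for E85-only and 839 bp for shared regions. The searched window thus covers a smaller part of a typical shared region, and the effect of this was not tested. E60-only regions had 20 motifs above that reference (47.6%) and 12 below (28.6%). E85-only regions had 3 above (7.14%) and 8 below (19.0%). Above and below mean that the reference lay outside the exact interval of the class. These intervals are wider for 2408 E85-only than for 32180 E60-only regions, so the counts depend on class size and cannot be compared between classes. Reversed letters, which keep base composition, were above and below for 8 and 8 in E60-only (19.0% each) and 2 and 3 in E85-only regions (4.76% and 7.14%). A match is a description of letters, not of binding.

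AP-1 letters, TGANTCA, were in 28.5% of the E60-only regions (28.0 to 29.0; weighted shared regions 23.2%) and 15.3% of the E85-only regions (13.9 to 16.8; weighted shared 24.04%), and in 22.6% of all regions. The lower E85-only share rests on the weighting, since unweighted shared regions had 15.9%. Without missing numbers the E85-only share was 15.9%, against 27.5% of weighted shared regions. The E-boxes CAGCTG and CAGATG were in 26.95% and 23.1% of the E60-only regions, against 23.7% and 19.7% of weighted shared ones, and in 22.4% and 17.9% of the E85-only ones, or 23.3% and 19.5% without missing numbers. Over all regions they were in 24.9% and 19.9%. The homeobox letters TAATTA were in 11.1% of the E60-only regions (weighted shared 8.60%), 7.60% of the E85-only ones (weighted shared 9.19%) and 8.54% of all regions. Unweighted shared regions had 5.40%, which turns the direction for E85-only regions, and without missing numbers the E85-only share was 9.13% against 10.85% of weighted shared regions. Their reversed letters moved the same way, 7.41% against 6.25% and 5.19% against 6.66%.

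The 3 motifs above the reference in E85-only regions were TEAD, STAT and RUNX. TEAD letters, ACATTCC, were in 8.97% (7.86 to 10.2), against 6.06% of weighted shared and 4.74% of E60-only regions, and in 4.74% of all. STAT letters, TTCNNNGAA, were in 13.5% (12.1 to 14.9), against 10.3% of weighted shared and 8.69% of E60-only regions, and in 8.43% of all. RUNX letters, TGTGGTT, were in 7.43% (6.42 to 8.55), against 5.92% and 5.22%, and in 4.94% of all. Leaving out missing numbers gave 10.5%, 15.0% and 8.52%. Reversed letters of all 3 stayed within the interval. The letters of CTCF, the insulator protein, were rare in E85-only regions, in 1.04% (0.673 to 1.53) against 2.20% of weighted shared regions and 2.39% of all, and in 0.423% without missing numbers; their reversed letters were also below.

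**Figure D4:**
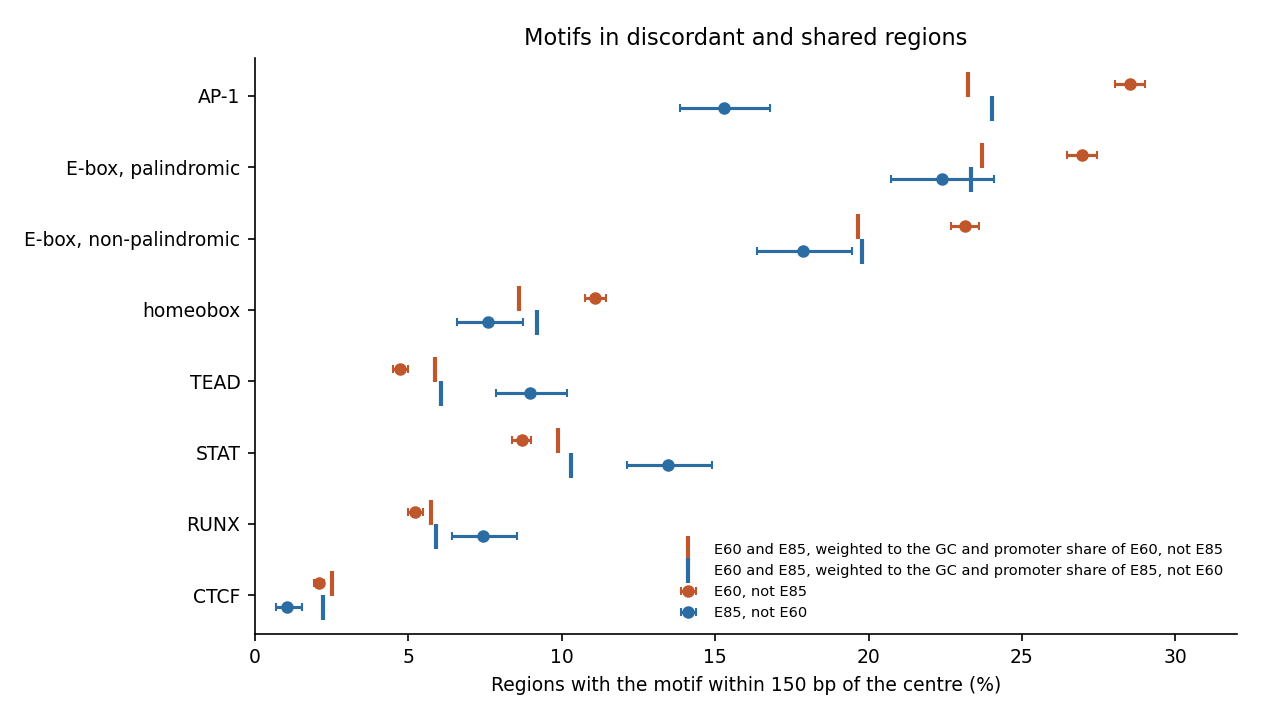
Percent of E60-only and E85-only regions with each motif within 150 bp of the centre, on either strand, with exact 95% intervals; vertical ticks give shared regions weighted to the GC and promoter share of each class. AP-1 is at 28.5% and 15.3% on opposite sides of its ticks, and TEAD, STAT and RUNX points of E85-only regions lie to the right of theirs.

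TEAD and STAT letters were gathered at the centre of E85-only regions. STAT letters fell in the 50 bp bin centred 25 bp from the centre in 3.53% of E85-only regions (2.83 to 4.35), 1.55% of E60-only and 1.23% of shared ones. TEAD letters fell there in 2.03% (1.51 to 2.68), 0.883% and 0.845%. In the central bin on the other side, E85-only regions had 2.49% with STAT and 1.79% with TEAD letters. Without missing numbers the first of these bins held 4.23% with STAT and 2.6% with TEAD letters, and the second 2.66% and 2.24%. In the outermost bin, 475 bp away, the classes lay at 1.58%, 1.44% and 1.23% for STAT and 0.872%, 0.587% and 0.568% for TEAD. AP-1 letters were gathered at the centre in each class, most in E60-only regions. The same central bin held them in 8.51% of E60-only, 3.82% of E85-only and 3.88% of shared regions. In the outermost bin the shares were 1.45%, 1.16% and 1.20%.

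**Figure D5:**
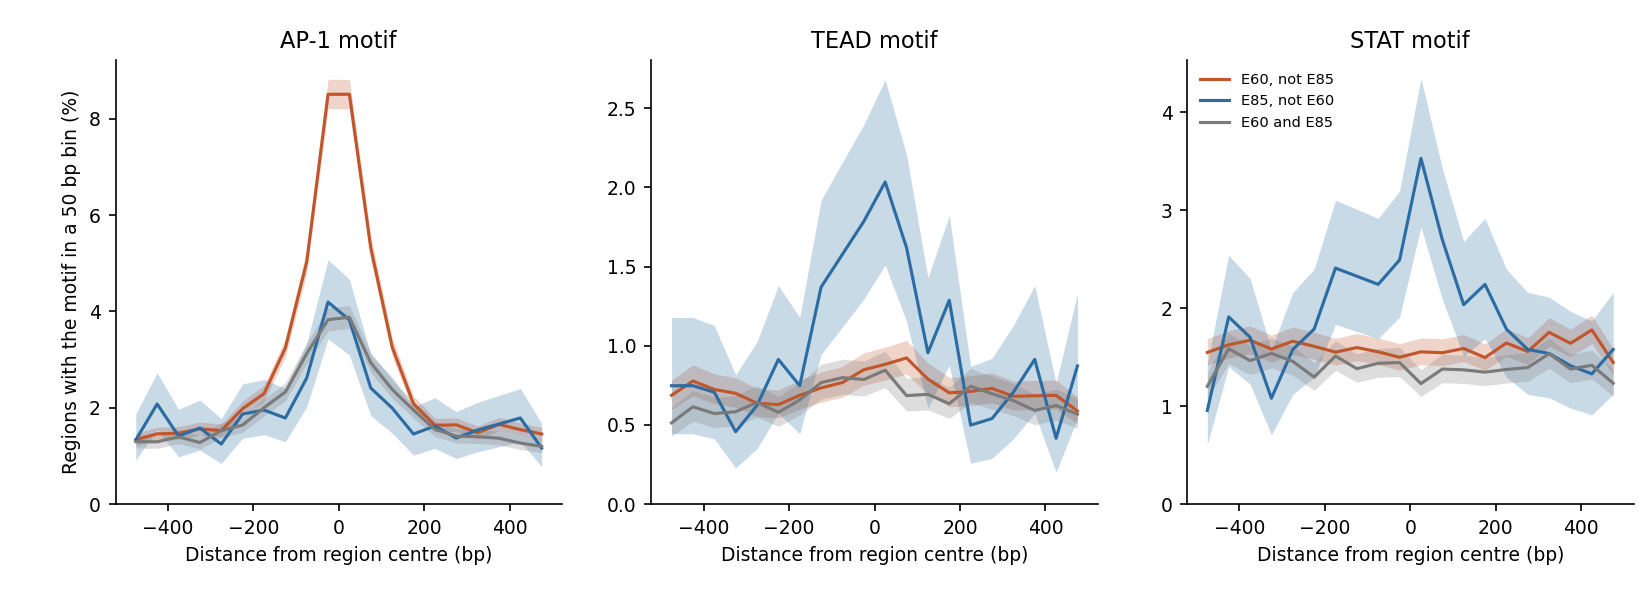
Percent of regions with AP-1, TEAD or STAT letters in each 50 bp bin by distance in bp from the region centre, with exact 95% intervals as bands. The AP-1 peak is higher in E60-only regions (8.51% at the centre), and TEAD and STAT rise at the centre of E85-only regions to 2.03% and 3.53% while the other classes stay low.

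The 3 motifs followed the other stages in different ways away from promoters. Of the E60-only regions that E80 also held, 39.8% had AP-1 letters (39.1 to 40.5), and of those it did not hold, 16.9% (16.1 to 17.6). The E85-only shares were 22.5% (19.9 to 25.2) and 11.4% (9.55 to 13.4), and E80 shared regions had 24.9%. TEAD was in 12.7% of the E85-only regions with E80 (10.6 to 14.9) and 6.82% without (5.38 to 8.49), against 5.51% and 4.21% of the E60-only ones. Without missing numbers the E85-only shares were 14.3% and 7.13% for TEAD, 23.2% and 8.92% for AP-1, and 12.8% and 17.8% for STAT. STAT went the other way, 11.9% with E80 (9.99 to 14.1) and 16.7% without (14.5 to 19.1), against 9.35% and 8.88%. Its highest share was in E85-only regions that E50 alone also held, 20.0% (15.4 to 25.3), or 25.9% of 166 without a missing number (19.4 to 33.3). Shared regions that E50 but not E80 held had 16% (11.5 to 21.5), which overlaps the interval of the E85-only ones, and E60-only regions of that pattern 12.9% (5.74 to 23.9). The homeobox letters were in 16.1% of the E60-only regions without E80 and 10.0% of those with it.

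Further letters were searched after these values had been seen. A narrower STAT core, TTCCNGGAA, was in 3.03% of E85-only (2.38 to 3.80), 0.988% of E60-only and 1.26% of shared regions. Its reversed letters, AAGGNCCTT, were also more frequent in E85-only regions, at 1.12% (0.740 to 1.63) against 0.612% and 0.665%. In distal E85-only regions without a missing number that E50 alone also held, the narrow core was in 9.04% (5.15 to 14.5). With the spacer lengthened by 1 base, E85-only regions had 8.10% and E60-only regions 7.80%, and with it shortened by 1 base to TTCNNGAA, 9.55% and 7.92%. Without missing numbers the lengthened form was in 8.83% of E85-only regions (weighted shared 9.56%) and the shortened form in 11.1% (9.65 to 12.7), above its weighted shared share of 9.35%. The narrow core was then in 3.57% (2.73 to 4.58) and its reversed letters in 1.33% (0.835 to 2.01). Words of 8 bases were counted within 100 bp of the centre of distal regions without a missing number. In at least 3% of these E85-only regions 275 words were found, and they were ranked by the ratio to their E60-only share. The words were chosen and ranked by their E85-only share, so high ratios follow from the choice and are no test of a motif. ATTCCAGG had the highest ratio, in 3.81% against 1.12%. GCATTCCA, CATTCCAG and AGGAATGC, which hold the TEAD core CATTCC or its complement, were in 3.24%, 4.32% and 3.17%, against 1.05%, 1.50% and 1.09%. TCCTGGAA, which is part of the narrow STAT core, was in 4.51% against 1.59%. Other words near the top of the ranking, AAATTCCT, AATTCCAG and ATTCCAGA, do not hold CATTCC. They were in 3.37%, 3.56% and 3.11%, against 0.999%, 1.19% and 1.07%.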

How the data were processed

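Omni-ATAC libraries of 4 stages, 2 technical libraries from 1 culture each, were used through 1 table of merged regions. The authors deposited, for each region, the names of the peaks assigned to it, which are neither counts nor scores, and their stage codes gave the calls used here. Per the submitters' processing notes, reads were handled with cutadapt 4.4, Bowtie2 2.5.1 and SAMtools 1.15 on rheMac10. The sources used here do not give the peak caller, its threshold, the pooling of libraries or the filter behind absent peak numbers. The 8 unnamed value columns were not used, and neither depth nor signal entered any comparison.

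Starts were taken as counted from 0 and are printed counted from 1. A promoter region lay within 1000 bp of an annotated start. A locus was a protein-coding gene body with 5000 bp upstream. Regions also carry peaks named as lifted, which were not used for stage calls. Motif letters were matched on both strands within 150 bp of the centre. Shared regions were weighted to bins of 5% GC and promoter or distal state. Steps were tested on simulated data. The work used matplotlib 3.10.9, PyRanges 0.1.4, pysam 0.24.0, SciPy 1.17.1, NumPy 2.4.6, pandas 2.3.3 and Python 3.11.15.

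Named were the 12 loci with the highest share in each class among loci with at least 5 regions (ties by number, then symbol), the 8 loci with the most regions and none discordant, the members of each list with the most discordant regions and the 5 widest regions of each class. Further members and the loci with the most E85-only regions were named after their values were seen. The regions, gene lists and motifs were chosen with earlier results of these data known. With 1 culture per stage no test was made. Some loci, list members and sequences that the rule would name are not reported here.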

Additional observations from a re-analysis of the deposited data

How the results depend on the processing

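Of the values recomputed under an alternative 64 were classed as the same, 51 as moved and 5 as changed in sign. Same did not always mean close. Without missing peak numbers E85-only regions fell from 2408 to 1654, and 8 of the 12 leading E85-only loci remained, both classed as the same. Leaving out missing peak numbers, and all alternatives for the E85 share, were added after seeing the data. No paired analysis was possible because peaks are named per stage and not per library, so no replicate could be left out either. E60-only regions numbered 13555 without lifted peaks and 20889 where E50 or E80 also held them, and E85-only regions 1216 and 1496. The E60-only promoter share was 11.2% in regions up to 1000 bp, 7.56% without lifted peaks, 12.8% with no E85 region within 1000 bp, 13.04% without missing numbers and 18.1% within 2000 bp. For E85-only it was 9.95% in regions up to 1000 bp, 7.32% without lifted peaks, 4.78% without missing numbers and 17.4% within 2000 bp. The E80 share of E60-only regions was 63.1% in regions up to 1000 bp and 58.8% without lifted peaks, and of E85-only regions 49.8% without missing numbers. The E50 share was 0.953%, 0.686% and 1.04% of E60-only and 28.1%, 23.1% and 24.3% of E85-only regions up to 1000 bp, without lifted peaks and without missing numbers. The E85 share of discordant regions that E50 and E80 held was 57.2% up to 1000 bp and 65.3% without lifted peaks.

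Differences from shared regions, in points, follow for each motif. For AP-1 in E60-only regions (5.29) they were 5.97 within 100 bp, 3.60 within 250 bp, 12.6 unweighted and 6.22 without lifted peaks. In E85-only regions (-8.76) they were -6.57, -10.7, -0.613 and -16.1, with -10.3 in distal regions and -11.6 without missing numbers. For TEAD in E60-only regions (-1.15) they were -0.779 within 100 bp, -1.67 within 250 bp, 0.395 unweighted, a change of sign, -1.43 in distal regions and -0.868 without lifted peaks. In E85-only regions (2.91) it was 4.63 unweighted. For STAT in E60-only regions (-1.17) they were -0.813 within 100 bp, 1.07 unweighted, a change of sign, and -1.91 without lifted peaks. In E85-only regions (3.15) they were 5.83 unweighted and 5.16 without lifted peaks. For the homeobox letters in E60-only regions (2.5) they were 2.12 within 100 bp, 3.20 within 250 bp, 5.70 unweighted and 3.77 without lifted peaks, and in E85-only regions (-1.59) 2.20 unweighted, a change of sign. For CAGCTG in E60-only regions (3.24) they were 2.06 within 250 bp, 4.29 unweighted and 4.72 without lifted peaks. In E85-only regions (-0.959) the sign changed to 1.94 without lifted peaks and 0.039 without missing numbers. Of the 12 leading E85-only loci 0 had at least 10 regions. The causes were not tested.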

Other observations

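The widest discordant regions were unlike the rest, with no test made. The widest E60-only region spanned 100179 bp on chromosome 13 from 14826365 to 14926543 and held 17 lifted peaks. The next were 24741 bp on chromosome 1, 10927 bp on chromosome 14, 7809 bp at DPH1 on chromosome 16 and 7346 bp at LRP5 on chromosome 14. The widest E85-only regions were 11840 bp on chromosome 7, 6087 bp at LHFPL3, 4005 bp at PEG3, an imprinted zinc-finger gene, 3968 bp at EI24 and 3758 bp at SMIM29. An E60 peak number was missing at all 5 of these E85-only regions, and E85 numbers at 3 of the 5 E60-only ones.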
